A study of Danio rerio with 12 samples.

Results

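The genes described here are tcf21, tbx18, wt1a, wt1b, fn1a, fn1b and pdgfra, 7 of the 22736 genes in the deposited table, chosen by symbol as genes used to mark or describe the epicardium. They were measured by bulk RNA-seq in hearts of adult AB-strain zebrafish of 3 to 12 months, either myd88+/+ or carrying the myd88 allele hu3568 on both chromosomes (myd88-/-). Each genotype was sampled as untouched (UT) ventricles and as injured tissues 1 and 24 hours post cryoinjury (hpci), an injury made by touching the ventricular apex with a probe cooled in liquid nitrogen. There were 2 libraries for each of these 6 conditions, 12 in all, and every library pooled 3 ventricles or 3 injured tissues. UT libraries hold ventricles and the rest hold injured tissue alone, so in any comparison with UT the injury and the part of the heart taken cannot be told apart. The mutation is present in every cell of the fish, and the labels and methods do not tie a pool to a sex or a clutch.

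The epicardium is the mesothelial layer that wraps the heart. After injury of the zebrafish heart its cells switch on developmental genes, divide, lay down extracellular matrix and cover the wound, and some of their descendants become perivascular cells and fibroblasts. The transcription factors Tcf21, Tbx18 and Wt1 are the usual markers of this layer, fibronectin is a matrix glycoprotein that epicardial and other cells deposit around a wound and that cells bind through integrins, and Pdgfra is a receptor for platelet-derived growth factors on mesenchymal cells. MyD88 is the adaptor of Toll-like and interleukin-1 receptors, which start the inflammatory response to tissue damage. None of these genes is expressed only in the epicardium.

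In danRer11, as the deposited table gives it, tcf21 (ENSDARG00000036869) lies on chromosome 23 from 31554269 to 31555696 on the minus strand, and tbx18 (ENSDARG00000036930) on the same chromosome from 31107685 to 31118371 on the plus strand, 435.9 kb away. The WT1 paralogs are wt1a (ENSDARG00000031420, chromosome 25, 15178225 to 15214161, minus strand) and wt1b (ENSDARG00000007990, chromosome 18, 45594085 to 45617146, minus strand). The fibronectin paralogs are fn1a (ENSDARG00000019815, chromosome 9, 15362300 to 15424639, minus strand) and fn1b (ENSDARG00000006526, chromosome 1, 5504128 to 5543065, minus strand), and pdgfra (ENSDARG00000070494) lies on chromosome 20 from 22435180 to 22476255 on the minus strand. Values are exon reads of the whole gene, so they do not separate isoforms, and levels are not compared between genes because the table gives no transcript lengths.

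All values are normalized counts, that is, reads divided by the size factor of the library and rounded. Their total per library was 2998177 to 3747891, and the number of reads behind it was estimated at 1476827 for replicate 1 of myd88+/+ at 24 hpci and at 3036272 to 4123603 for the other 11 libraries. In that shallow library 1 read was worth 2.54 normalized counts, against at most 1.06 elsewhere, and the lowest value of any of the 7 genes in any library rested on an estimated 14 reads (tbx18 in the shallow library). Replicate 2 of myd88+/+ at 1 hpci stood apart in its level of fast skeletal muscle genes (tnnt3b at 1009 normalized counts, where no other library exceeded 25, and mylpfa at 932, where none exceeded 40). Replicate 1 of that group held some as well, with mylpfa at 40 and tnnt3b at 25. Its pvalb2 was at 128, against 156 in replicate 2 and at most 8 outside the group. The targeted gene, myd88, had 63 and 56 normalized counts in UT libraries of myd88+/+ fish and 32 and 37 in those of myd88-/- fish, with 200 and 171 against 199 and 210 for 1 hpci and 79 and 113 against 43 and 66 for 24 hpci. It was called between genotypes in no state, so its level does not check the labels, most plainly at 1 hpci.

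The 7 genes did not move as a group (the plot of each gene by library). The levels of tcf21 and tbx18 were lower in injured tissues than in UT ventricles at both times and in both genotypes. Those of wt1b and fn1a rose at 24 hpci, fn1b fell at 24 hpci, and wt1a and pdgfra gave a single call between them. A gene was called changed at a Benjamini-Hochberg adjusted p below 0.05 over the 16643 genes tested with limma and a change of more than 1.5-fold, and all 7 genes passed the filter on low values. Since the injured tissue is a mixture of cells, fewer epicardial cells and less RNA per cell cannot be told apart in any of these values. Ranges of libraries that lie apart are given below without the share of all tested genes that do so.

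**Figure D1:**
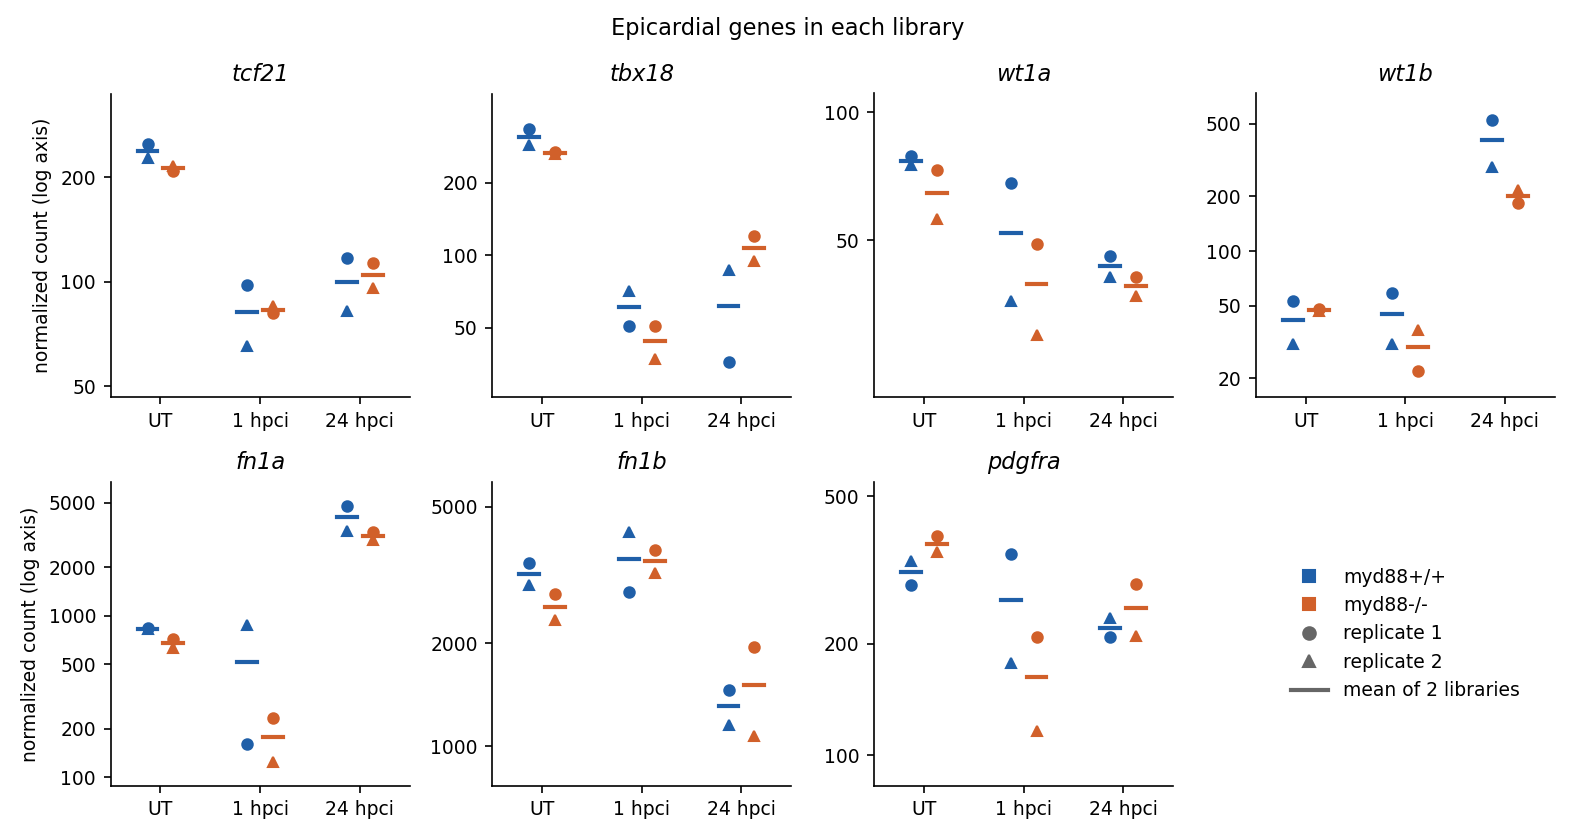
Normalized count of each gene (log axis) in the 12 libraries by state, with myd88+/+ in blue and myd88-/- in orange, replicate 1 as circles, replicate 2 as triangles, and bars at the mean of 2 libraries. Every UT library lay above every injured tissue for tcf21 and tbx18, every 24 hpci library lay above all others for wt1b and fn1a, and every 24 hpci library lay below all others for fn1b. The share of all tested genes that lie apart in this way is not given. Of all tested genes 39.9% in myd88+/+ and 30.1% in myd88-/- were called at 24 hpci against UT.

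The bHLH factor Tcf21 marks the epicardium of the embryo and of the adult fish. In myd88+/+ hearts its gene had 249 and 227 normalized counts in the UT libraries, 98 and 65 at 1 hpci, and 117 and 82 at 24 hpci. In myd88-/- hearts the values were 209 and 216, 81 and 85, and 113 and 96. The 4 UT libraries (209 to 249) lay above all 8 injured tissues (65 to 117), and the ranges at 1 and 24 hpci overlapped. The fall from UT to 1 hpci was 2.95-fold in myd88+/+ (log2 fold change -1.56 ± 0.25, SE, adjusted p = 0.00574) and 2.54-fold in myd88-/- (-1.35 ± 0.25, adjusted p = 0.00801). At 24 hpci tcf21 was still 2.41-fold (adjusted p = 0.00298) and 2.03-fold (adjusted p = 0.0117) below UT, and between 1 and 24 hpci it was called in neither genotype (log2 fold changes of 0.29 and 0.32).

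Tbx18 is a T-box factor of the epicardium and, in mammals, also of mural cells. Its gene stood at 336 and 286 normalized counts in the UT libraries of myd88+/+, 51 and 71 at 1 hpci and 36 and 87 at 24 hpci. In myd88-/- it stood at 269 and 263, 51 and 37, and 120 and 95. Again the UT range (263 to 336) lay clear of the injured tissues (36 to 120). The fall from UT to 1 hpci was 5.08-fold in myd88+/+ (log2 fold change -2.35 ± 0.37, SE, adjusted p = 0.00513) and 6.01-fold in myd88-/- (-2.59 ± 0.37, adjusted p = 0.00191). At 24 hpci tbx18 in myd88+/+ was 5.45-fold below UT (adjusted p = 0.000709), while in myd88-/- it was 2.43-fold above 1 hpci (log2 fold change 1.28 ± 0.37, adjusted p = 0.021) and 2.48-fold below UT (adjusted p = 0.0214). The call between 1 and 24 hpci in myd88-/- was lost without replicate 2 at 1 hpci (adjusted p = 0.132) and without replicate 1 (0.114) or replicate 2 (0.0629) at 24 hpci. The lowest myd88+/+ value at 24 hpci, 36, came from the shallow library, and without that library tbx18 was 1.82 log2 units below UT.

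The order of the 6 conditions was therefore plain for both markers only at its top. The UT ventricles of both genotypes came first, and below them the tcf21 means of 81.5 ± 23.3 (SD, n = 2) to 104.5 ± 12 normalized counts had overlapping or adjoining libraries. For tbx18 the myd88-/- libraries at 24 hpci, with a mean of 107.5 ± 17.7 normalized counts, lay above the 6 other injured tissues (36 to 87), next to the 87 of myd88+/+ replicate 2.

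Other genes of the epicardial layer were followed to see how general the fall was. Of a list of 11 symbols 9 are in the table and 8 passed the filter, while the mesothelial gene mslna was at 0 or 1 in 10 of the libraries and at 12 and 26 normalized counts in the myd88-/- libraries at 1 hpci. At 1 hpci 2 of the 8 were called lower in each genotype, where 3.73% of all tested genes were in myd88+/+ and 4.55% in myd88-/-. They were bnc2, a zinc finger gene, and sema3d, a secreted guidance factor of the epicardium. The myd88+/+ level of bnc2 was 268 and 209 normalized counts in the UT pair and 58 and 49 at 1 hpci (log2 fold change -2.13, adjusted p = 0.00171). At 24 hpci 6 of the 8 were called lower in myd88+/+, where 20.9% of all tested genes were, led by sema3d (log2 fold change -4.19, from 262 and 266 to 20 and 9 normalized counts), sema3fb (-2.60), the junction gene jam2b (-2.49) and gstm.3 (-1.56). In myd88-/- 5 were called lower (14.5% of all tested genes), and gstm.3, jam2b, podxl, sema3d and sema3fb were called in both genotypes. Few reads lay behind some of these values. In myd88+/+ jam2b went from 20 and 17 normalized counts in UT to 3 and 2 at 24 hpci, and sema3fb from 110 and 118 to 8 and 39. The 3 of jam2b and the 8 of sema3fb came from the shallow library, where 3 reads stood for 7.61 normalized counts. The retinoic acid synthesis gene aldh1a2, which activated epicardium and endocardium both express, and hand2 were called against UT in neither genotype at either time, and aldh1a2 was called higher at 24 than at 1 hpci in both. The median log2 fold change of the list at 24 hpci against UT was -1.28 in myd88+/+ and -1.01 in myd88-/-, and over all tested genes it was -0.01 in each.

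In zebrafish wt1a and wt1b are duplicates of an ancestral gene, and both are used as epicardial reporters, wt1b most often after injury. In myd88+/+ wt1b had 53 and 31 normalized counts in the UT libraries, 59 and 31 at 1 hpci, and 525 and 288 at 24 hpci. The myd88-/- libraries gave 48 and 47, 22 and 37, and 183 and 216. All 4 libraries at 24 hpci (183 to 525) lay above the other 8 (22 to 59), and UT and 1 hpci overlapped. The rise from UT to 24 hpci was 9.38-fold in myd88+/+ (log2 fold change 3.23 ± 0.42, SE, adjusted p = 0.000301) and 4.12-fold in myd88-/- (2.04 ± 0.42, adjusted p = 0.00469). From 1 to 24 hpci it was 8.90-fold (adjusted p = 0.000425) and 6.76-fold (adjusted p = 0.000766). The highest value, 525, came from the shallow library, and without it the rise from UT in myd88+/+ was 2.80 log2 units.

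The paralog wt1a did not rise. It was at 79 and 75 normalized counts in the UT libraries of myd88+/+, 68 and 36 at 1 hpci and 46 and 41 at 24 hpci, and in myd88-/- at 73 and 56, 49 and 30, and 41 and 37. The 4 UT libraries (56 to 79) lay above the 4 at 24 hpci (37 to 46), but no comparison of wt1a was called. Its log2 fold change at 24 hpci against UT was -0.81 (95% interval -1.61 to -0.01, adjusted p = 0.0954) in myd88+/+ and -0.70 (-1.50 to 0.10, adjusted p = 0.167) in myd88-/-.

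Fibronectin is encoded by fn1a and fn1b in the zebrafish. The level of fn1a was 837 and 824 normalized counts in the UT libraries of myd88+/+, 160 and 876 at 1 hpci and 4804 and 3368 at 24 hpci. In myd88-/- it was 721 and 635, 231 and 124, and 3286 and 2955. The 4 libraries at 24 hpci (2955 to 4804) exceeded all others. The rise from UT was 4.84-fold in myd88+/+ (log2 fold change 2.27 ± 0.60, SE, adjusted p = 0.0122) and 4.60-fold in myd88-/- (2.20 ± 0.60, adjusted p = 0.0178), and from 1 to 24 hpci it was 10.7-fold (adjusted p = 0.00174) and 18.3-fold (adjusted p = 0.000564). The call against UT in myd88+/+ was lost without replicate 1 (adjusted p = 0.0564) or 2 (0.0598) of its UT ventricles or replicate 1 at 24 hpci (0.064). In myd88-/- it was lost without either UT library (0.0674 and 0.09) or either library at 24 hpci (0.0719 and 0.0879).

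At 1 hpci 3 of the 4 fn1a libraries lay between 124 and 231 normalized counts, below every UT library, and the fourth, replicate 2 of myd88+/+, lay at 876, above every UT library. That library had the highest level of most fast skeletal muscle genes, some of which replicate 1 also held. The part of that tissue in their fn1a values was not tested. In replicate 2 the matrix gene col12a1a was at 816 normalized counts against 78 in replicate 1, and the growth factor gene nrg1 at 96 against 4. The change of fn1a from UT to 1 hpci was called in neither genotype (log2 fold change -1.15, adjusted p = 0.266, in myd88+/+ and -1.99, adjusted p = 0.0587, in myd88-/-). Without replicate 2 it was -2.37 in myd88+/+ and was called (adjusted p = 0.00908), and without replicate 1 it was 0.08.

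The values of fn1b ran the other way. They were 3424 and 2957 normalized counts in the UT libraries of myd88+/+, 2820 and 4216 at 1 hpci and 1462 and 1155 at 24 hpci, and 2776 and 2341, 3750 and 3206, and 1950 and 1076 in myd88-/-. UT and 1 hpci overlapped and the 4 libraries at 24 hpci (1076 to 1950) lay below both. The fall from 1 to 24 hpci was 2.65-fold in myd88+/+ (log2 fold change -1.41 ± 0.30, SE, adjusted p = 0.00486) and 2.39-fold in myd88-/- (-1.26 ± 0.30, adjusted p = 0.00829). Against UT fn1b was called lower in myd88+/+ (2.45-fold, adjusted p = 0.00673), and in myd88-/- its log2 fold change was -0.82 (95% interval -1.47 to -0.15, adjusted p = 0.0609).

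The unequal change of the paralogs was described as a single value per library, the log2 ratio of fn1b to fn1a, over both genotypes (the plot of paralog ratios). Because the genes differ in length, the ratio shows a change between libraries and not which gene has more transcripts. It was 1.92 ± 0.08 (SD, n = 4) in UT ventricles, 3.77 ± 1.05 at 1 hpci and -1.37 ± 0.42 at 24 hpci, and the libraries of the 3 states did not overlap. The ratio differed by -3.29 log2 units at 24 hpci against UT and by -5.14 against 1 hpci. Both separations follow from the separate ranges of the genes given above, so no test is added for them. At 1 hpci, where each gene overlapped its UT range, the ratio was 1.85 above UT. The two-sided exact permutation test gave an unadjusted p = 0.0286, the smallest that 4 against 4 libraries allow. No adjusted p is given, since the 6 tests adjusted together include those that the ranges of the genes fix. The smallest ratio at 1 hpci, 2.27, was that of replicate 2 of myd88+/+ and lay just above the largest UT ratio of 2.03.

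The log2 ratio of wt1b to wt1a was -0.66 ± 0.42 (SD, n = 4) in UT ventricles, -0.31 ± 0.59 at 1 hpci and 2.73 ± 0.57 at 24 hpci. At 24 hpci it was higher than in UT ventricles by 3.39 and than at 1 hpci by 3.04, which the separate range of wt1b at 24 hpci goes far to fix. Between 1 hpci and UT it differed by 0.36 with overlapping libraries (exact permutation test, p = 0.343).

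**Figure D2:**
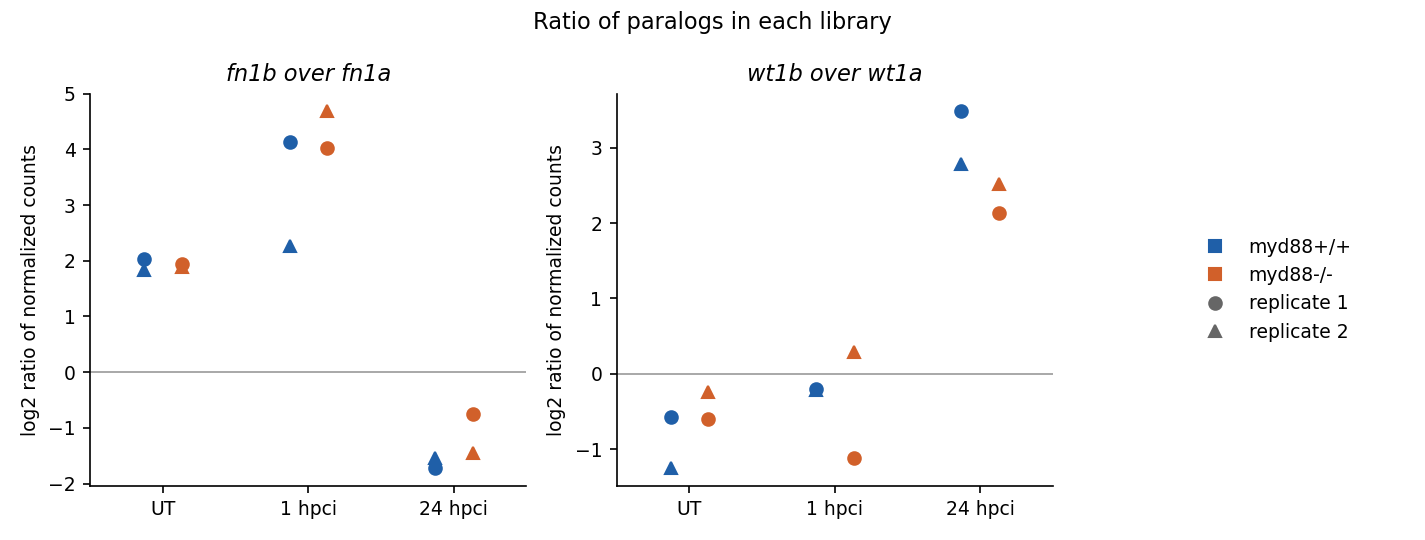
Log2 ratio of the normalized counts of fn1b to fn1a (left) and of wt1b to wt1a (right) in each of the 12 libraries by state, with myd88+/+ in blue, myd88-/- in orange, and replicates 1 and 2 as circles and triangles. The fn1b to fn1a ratio averaged 1.92 in UT ventricles, 3.77 at 1 hpci and -1.37 at 24 hpci, and the wt1b to wt1a ratio was above 2 only in the 4 libraries at 24 hpci.

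Cells bind fibronectin through integrins. Genes of integrins, the syndecan Sdc4 and the matrix protein tenascin C, 9 in all, were followed beside it. At 24 hpci against UT 3 of the 9 were called higher in myd88+/+, where 19.0% of all tested genes were, and 2 lower, where 20.9% were. In myd88-/- 4 were called higher (15.6%) and 0 lower (14.5%). The 3 called higher in both genotypes were tnc (log2 fold changes 2.76 in myd88+/+ and 2.95 in myd88-/-), itga4, which encodes an integrin subunit of leukocytes that binds fibronectin (2.23 and 4.03), and sdc4 (0.90 and 0.91). The level of itga4 was 76 and 298 normalized counts in myd88+/+ at 24 hpci and 287 and 199 in myd88-/-, against 8 to 34 in the UT libraries. The genes of the major integrin beta subunit, itgb1b (-1.18) and itgb1a (-1.05), were called lower in myd88+/+. In myd88-/- the log2 fold changes of itgb1b (-0.32) and itgb1a (-0.69) were not called, but neither was the interaction (adjusted p = 0.717 and 0.753), so the genotypes were not shown to differ. The myd88+/+ values of itgb1b at 24 hpci were 173 normalized counts in the shallow library and 455 in replicate 2, against 643 and 635 in UT. In myd88-/- the fourth gene called higher was itgb3a, at 91 and 74 normalized counts against 4 and 0 in UT. In myd88+/+ itgb3a was at 8 in the shallow library and 92 in replicate 2 against 5 and 4 in UT (log2 fold change 2.40, adjusted p = 0.0796), and its interaction was not called (adjusted p = 0.644). At 1 hpci sdc4 was already higher in both genotypes (log2 fold changes 1.43 and 1.93). The gene of itga5, a subunit of the main fibronectin receptor, was lower in myd88+/+ (-0.75, adjusted p = 0.0474). In myd88-/- itga5 went from 1448 and 1406 normalized counts to 1321 and 1134 and was not called, and neither was its interaction. At 1 hpci 1 of the 9 genes was called higher in myd88+/+ and 2 in myd88-/- (5.01% and 5.90% of all tested genes). Called lower were 1 and 0 (3.73% and 4.55%). The median of the 9 at 24 hpci was -0.24 in myd88+/+ and 0.91 in myd88-/-.

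Pdgfra is a tyrosine kinase receptor found on epicardial, fibroblast and other mesenchymal cells. Its gene was at 288 and 335 normalized counts in the UT libraries of myd88+/+, 349 and 177 at 1 hpci and 208 and 234 at 24 hpci, and in myd88-/- at 390 and 353, 209 and 116, and 290 and 210. The UT libraries (288 to 390) overlapped the 1 hpci libraries (116 to 349) and, by 1 library, those at 24 hpci (208 to 290). In myd88-/- pdgfra was called lower at 1 hpci than in UT (2.37-fold, log2 fold change -1.25 ± 0.34, SE, adjusted p = 0.0417). This call did not hold when only the groups compared were fitted (adjusted p = 0.0688) or without the variance trend (0.0814), and it held in 5 of the 12 fits that left out a library. In myd88+/+ the 1 hpci change was -0.32 (adjusted p = 0.618), with replicate 1 above both UT libraries, and the changes at 24 hpci, -0.49 and -0.59, were not called in either genotype.

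Among 7 tested rows for PDGF ligands and other receptors, pdgfd, a ligand of the related receptor Pdgfrb, was called higher in both genotypes at 1 hpci (log2 fold changes 2.05 and 3.13, from 47 to 80 normalized counts in the 4 UT libraries to 254 to 439) and at 24 hpci (0.72 and 1.50). The Pdgfra ligand gene pdgfab was called higher at 24 hpci in myd88+/+ (2.93, from 21 and 22 to 185 and 156 normalized counts), where in myd88-/- it went from 41 and 38 to 78 and 130 and was not called against UT, and its interaction was not called either (adjusted p = 0.63). The gene pdgfbb was called lower in myd88-/- at both times (log2 fold changes -0.92 and -0.76). In myd88+/+ it was not called, at 452 and 396 normalized counts in UT, 264 and 407 at 1 hpci and 391 and 356 at 24 hpci. Its interactions were not called, so the genotypes were not shown to differ. At 1 hpci 1 row was called higher in each genotype (5.01% and 5.90% of all tested genes), and 0 and 2 lower (3.73% and 4.55%). At 24 hpci 2 of the 7 rows were thus called higher in myd88+/+ (19.0% of all tested genes) and 1 in myd88-/- (15.6%), and 0 and 1 lower (20.9% and 14.5%). The list's median at 24 hpci was -0.18 in myd88+/+ and -0.26 in myd88-/-.

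In myd88+/+ at 1 hpci against UT 2 of the 7 genes were called lower, where 3.73% of all tested genes were, and 0 higher, where 5.01% were. The genes were tcf21 and tbx18, and they were also the only 2 of the 7 with an unadjusted p below 0.05, where 4119 of all 16643 tested genes had such a p. In myd88-/- 3 were called lower (4.55% of all tested genes) and 0 higher (5.90%), pdgfra being the third. The median log2 fold change of the 7 was -0.63 in myd88+/+ and -1.25 in myd88-/-, against 0.00 and -0.03 over all tested genes. Without replicate 1 of the myd88+/+ UT ventricles neither gene was called in myd88+/+ (adjusted p = 0.0658 for tcf21 and 0.0579 for tbx18), with 236 of all tested genes called in place of 1453, and in a fit of the groups compared alone neither was called (0.0717 and 0.0514). In myd88-/- tbx18 alone was called without either UT library or without replicate 2 at 1 hpci, and the adjusted p of tcf21 was then 0.0578 to 0.0669. With the skeletal muscle library left out, the log2 fold change of fn1a in myd88+/+ was -2.37, which rested on a lone library at 1 hpci.

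At 24 hpci against UT a much larger part of all genes was called, and the counts of the 7 are read against that. In myd88+/+ 2 were higher, wt1b and fn1a (19.0% of all tested genes), and 3 lower, tcf21, tbx18 and fn1b (20.9%). In myd88-/- 2 were higher (15.6%) and 2 lower (14.5%), without fn1b. The median was -0.81 in myd88+/+ and -0.70 in myd88-/-. Without replicate 1 of the myd88+/+ UT ventricles fn1a and fn1b lost the call (adjusted p = 0.0564 and 0.0534). Without either UT library of myd88-/- wt1b alone was called in that genotype. Without replicate 2 of myd88-/- at 24 hpci none of the 7 was called there (adjusted p = 0.0509 for wt1b, 0.0879 for fn1a, 0.105 for tcf21 and 0.151 for tbx18), with 1807 of all tested genes called in place of 5014.

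Between 1 and 24 hpci wt1b and fn1a were called higher and fn1b lower in myd88+/+, 2 higher where 16.9% of all tested genes were and 1 lower where 18.0% were. In myd88-/- 3 were higher (18.1%), with tbx18 beside wt1b and fn1a, and fn1b was the 1 called lower (16.3%). These comparisons hold injured tissue on both sides. Without replicate 2 of myd88-/- at 24 hpci tbx18 and fn1b lost the call (adjusted p = 0.0629 and 0.0892). The comparisons within a genotype share libraries, so their counts are not independent of each other.

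**Figure D3:**
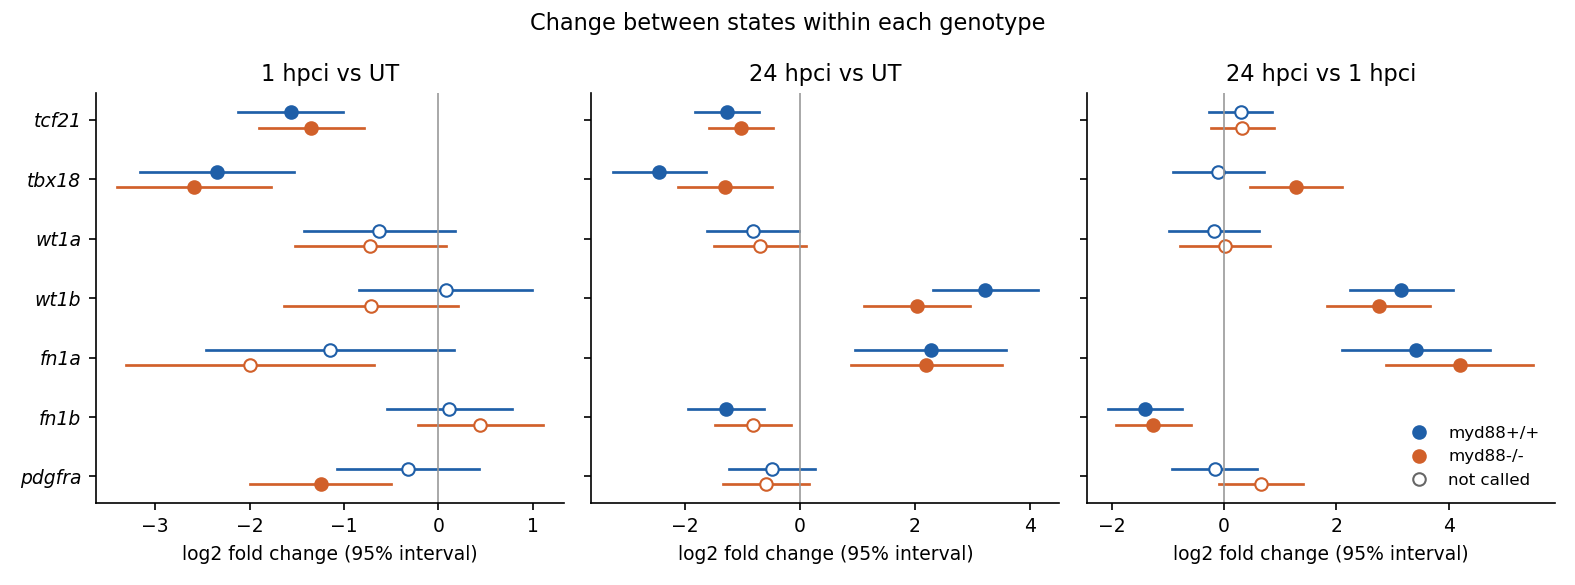
Log2 fold change with its 95% interval for each gene between states, within myd88+/+ (blue) and myd88-/- (orange), with filled points for called genes and open points for genes not called. The points of tcf21 and tbx18 lie below 0 in both comparisons with UT, and wt1b and fn1a reach 3.23 and 2.27 in myd88+/+ at 24 hpci against UT while fn1b lies at -1.29.

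Markers of other tissues moved with these states. The summed level of 5 red blood cell rows was 1725 to 2535 normalized counts in UT, 4114 to 5075 at 1 hpci and 2015 to 3966 at 24 hpci. At 1 hpci against UT 1 of the 5 rows was called higher in myd88+/+ (5.01% of all tested genes) and 2 in myd88-/- (5.90%). The outflow tract gene elnb, which encodes an elastin of the bulbus arteriosus, was at 251 to 338 in the UT libraries and at 3 to 74 in the injured tissues, all below every UT library. Of the 3 bulbus genes in the table all 3 were called lower at 24 hpci in myd88+/+ (elnb -5.94, fbln5 -2.84, mylka -0.94 on the log2 scale). In myd88-/- elnb and fbln5 were. Of all tested genes 20.9% and 14.5% were called lower there. The sum of the 3 was 638 to 773 normalized counts in UT, 527 to 1039 at 1 hpci and 206 to 319 at 24 hpci. At 1 hpci mylka was higher than in UT (478 to 829 against 284 to 392), and fbln5 was called in neither genotype. The part of these tissues in the fall of tcf21 and tbx18 was not tested.

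The rise of wt1b and fn1a at 24 hpci went with a rise of myeloid genes. Of 6 myeloid genes 5 were called higher in myd88+/+, where 19.0% of all tested genes were, led by mpx (log2 fold change 3.89), coro1a (3.10), lcp1 (2.57) and mpeg1.1 (2.42), and 4 in myd88-/- (15.6%). Their summed level was 605 to 876 normalized counts in UT, 672 to 1226 at 1 hpci and 2750 to 5797 at 24 hpci, and the neutrophil gene lyz was at 0 to 16 throughout. The median log2 fold change of the 6 at 24 hpci was 2.50 in myd88+/+ and 1.78 in myd88-/-. The part of these cells in the fn1a and wt1b values was not tested.

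The 6 cardiomyocyte rows summed to 3822 to 4197 normalized counts in UT, 3484 to 4518 at 1 hpci and 2556 to 2620 at 24 hpci, except for 7030 in the shallow library. There 1 read was worth 2.54 normalized counts, against 0.73 to 0.77 in the other libraries at 24 hpci. Duplicate removal limits the reads that a highly expressed gene can keep, more so in deep libraries. The part of this limit in the sums was not tested. Of the 6 cardiomyocyte rows 1 was called lower at 24 hpci in both genotypes, where 20.9% of all tested genes were in myd88+/+ and 14.5% in myd88-/-. It was an actc1a row at 21 to 84 normalized counts. The other actc1a row, at 310 to 878, was not called (log2 fold changes 0.05 in myd88+/+ and -0.61 in myd88-/-). In the endocardial and endothelial list 2 of 6 genes, cdh5 and kdrl, were called lower at 24 hpci in both genotypes, beside the same shares of all tested genes (20.9% and 14.5%). The other genes of that list were not called against UT there. The list summed to 4957 to 6030 normalized counts in UT and 3595 to 4335 at 24 hpci. The fat gene adipoqa was lower in myd88-/- than in myd88+/+ UT ventricles (log2 fold change -4.49, adjusted p = 0.0124). The 6 fast skeletal muscle rows summed to 4352 normalized counts in the library named above and to 762 to 2155 in the others, of which ckma, also expressed in the heart, made up most. The muscle gene pvalb2, at 128 and 156 normalized counts in myd88+/+ and at 4 and 1 in myd88-/- at 1 hpci, was called between the genotypes there and in the interaction from UT to 1 hpci.

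Genes that activated epicardium is known to express were mixed. Of 15 followed, 3 were called higher at 24 hpci against UT in myd88+/+ and 4 lower, close to the 19.0% and 20.9% of all tested genes. Those higher were col12a1b, a fibril-associated collagen gene (log2 fold change 2.71), ptx3a, a pentraxin gene (1.49), and mdka, a midkine gene (1.03). The mdka values were 1020 normalized counts in the shallow library and 465 in replicate 2, against 365 and 312 in UT. The genes called lower included hapln1a (-2.77) and hapln1b (-1.22), which encode hyaluronan link proteins, and the chemokine gene cxcl12a (-1.22). In myd88-/- 1 was called higher, col12a1b (4.31), and 1 lower, hapln1a (-3.29), where 15.6% and 14.5% of all tested genes were. At 1 hpci 2 of the 15 were called lower in myd88+/+ (3.73% of all tested genes) and 3 in myd88-/- (4.55%), ptx3a and snai1a in both, ptx3a from 84 to 181 normalized counts in the UT libraries to 1 to 6. The median of the 15 at 24 hpci was -0.56 in myd88+/+ and -0.47 in myd88-/-.

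Fibroblast and mural genes, which mark cells that epicardial lineages give rise to, were called in the lower direction or not called at 24 hpci against UT. Of all tested genes 20.9% were called lower there in myd88+/+ and 14.5% in myd88-/-. Of 9 fibroblast genes 4 were lower in myd88+/+, lum (-3.47 on the log2 scale), mgp (-2.96), postnb (-2.86) and dcn (-1.12), and 3 in myd88-/-, where postnb was not called. In myd88-/- postnb went from 603 and 479 normalized counts to 297 and 233, and its interaction was not called. Few reads lay behind 2 of these falls in myd88+/+. There lum went from 54 and 59 normalized counts to 8 and 2, and mgp from 25 and 20 to 0 and 8. The 8 of lum and the 0 of mgp came from the shallow library, where 3 reads stood for 7.61. The collagen genes col1a1a, col1a1b, col1a2 and col5a1 were not called, and the summed level of the list was 8383 to 9888 normalized counts in UT and 7064 to 9893 at 24 hpci. Of 8 mural genes 3 were lower in both genotypes, rgs5a (-2.89 in myd88+/+), abcc9 (-2.85) and acta2 (-1.09), with sums of 3514 to 5202 in UT and 1928 to 2517 normalized counts at 24 hpci. The receptor gene pdgfrb, which stands in both the mural and the PDGF list, was called in no comparison with UT.

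**Figure D4:**
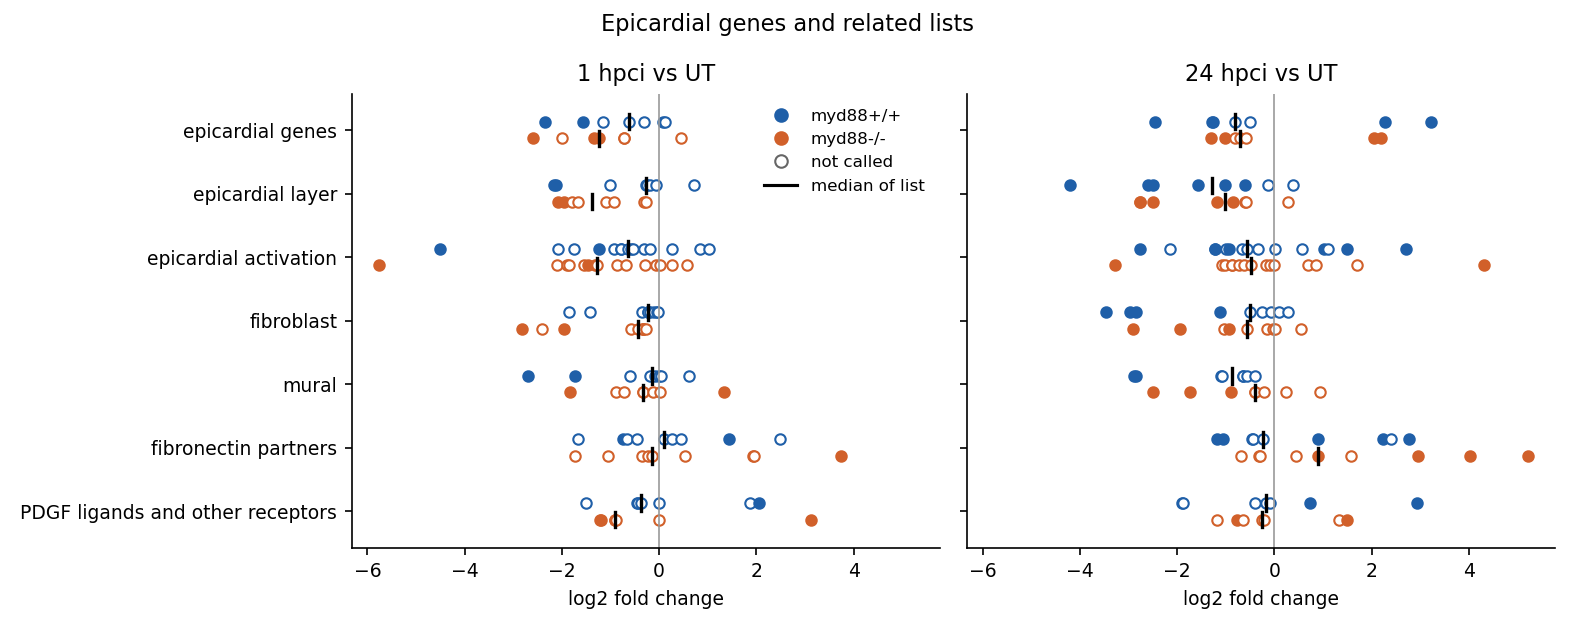
Log2 fold change of each tested gene of 7 lists at 1 hpci (left) and 24 hpci (right) against UT, in myd88+/+ (blue) and myd88-/- (orange), with filled points for called genes, open points for genes not called and black ticks at the list medians. At 24 hpci 6 of 8 genes of the epicardial layer were called lower in myd88+/+ and 5 in myd88-/-, where 20.9% and 14.5% of all tested genes were, while the 7 epicardial genes had called members on both sides of 0.

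Across the 12 libraries tcf21 and tbx18 had a Pearson r of 0.855 on the log2 scale, wt1b and fn1a of 0.815, and wt1b and fn1b of -0.897. These values describe libraries that share states and are not tests. Among all tested genes with a symbol, the closest to tcf21 were ntd5 (r = 0.953), mest (0.951) and sall1a (0.947), and to tbx18 cftr (0.975), fgfr4 (0.971) and clip3 (0.961). The closest to wt1a were ryk (0.951), exoc3l1 (0.939) and CR854941.2 (0.927), and to wt1b dpp3 (0.985) and ppil1 (0.979). For fn1a they were vcanb, which encodes the matrix proteoglycan versican (0.984), tyms (0.983) and si:dkeyp-66d1.7 (0.980), for fn1b pdlim5a (0.961), col18a1b (0.956) and phka2 (0.955), and for pdgfra the lysyl oxidase-like gene loxl1 (0.932), tspan15 (0.932) and l3hypdh (0.923). The level of vcanb was 213 to 416 normalized counts in UT, 52 to 212 at 1 hpci and 2047 to 3048 at 24 hpci. Few reads lay behind cftr and clip3, both at 0 to 3 normalized counts in the injured tissues. The level of CR854941.2 was also low, at 1 to 36 over all libraries. None of the 7 genes was among the 3 closest to another.

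The comparison of genotypes asked whether any of the 7 depended on myd88. None was called in UT ventricles (2.08% of all tested genes were called there), at 1 hpci (0.120%) or at 24 hpci (0.0300%). In UT ventricles the log2 fold changes of myd88-/- against myd88+/+ ran from -0.32 for fn1b to 0.26 for pdgfra. There 0 of 7 had an unadjusted p below 0.05 in limma, where 2718 of all 16643 tested genes did. At 1 hpci the fold changes ran from -1.14 for fn1a to 0.06 for tcf21, again with 0 of 7, where 1472 of all tested genes had such a p. The fn1a value rested on the skeletal muscle library. Without that library fn1a differed by 0.08, and without the other myd88+/+ library by -2.37. Each of these fits left a lone library in that group.

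At 24 hpci 2 of the 7 had an unadjusted p below 0.05 in limma, as 853 of all 16643 tested genes did, and neither passed the adjustment. The level of tbx18 was 36 and 87 normalized counts in myd88+/+ and 120 and 95 in myd88-/-, higher in both mutant libraries (log2 fold change 0.92, 95% interval 0.10 to 1.73, adjusted p = 0.704). The level of wt1b was 525 and 288 in myd88+/+ and 183 and 216 in myd88-/-, lower in both mutant libraries (log2 fold change -0.96, 95% interval -1.88 to -0.05, adjusted p = 0.704). With the shallow library and the skeletal muscle library left out the differences were 0.29 for tbx18 and -0.53 for wt1b. With the shallow library as the only one of its group, tbx18 differed by 1.54. For tcf21 the interval at 24 hpci was -0.47 to 0.64.

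**Figure D5:**
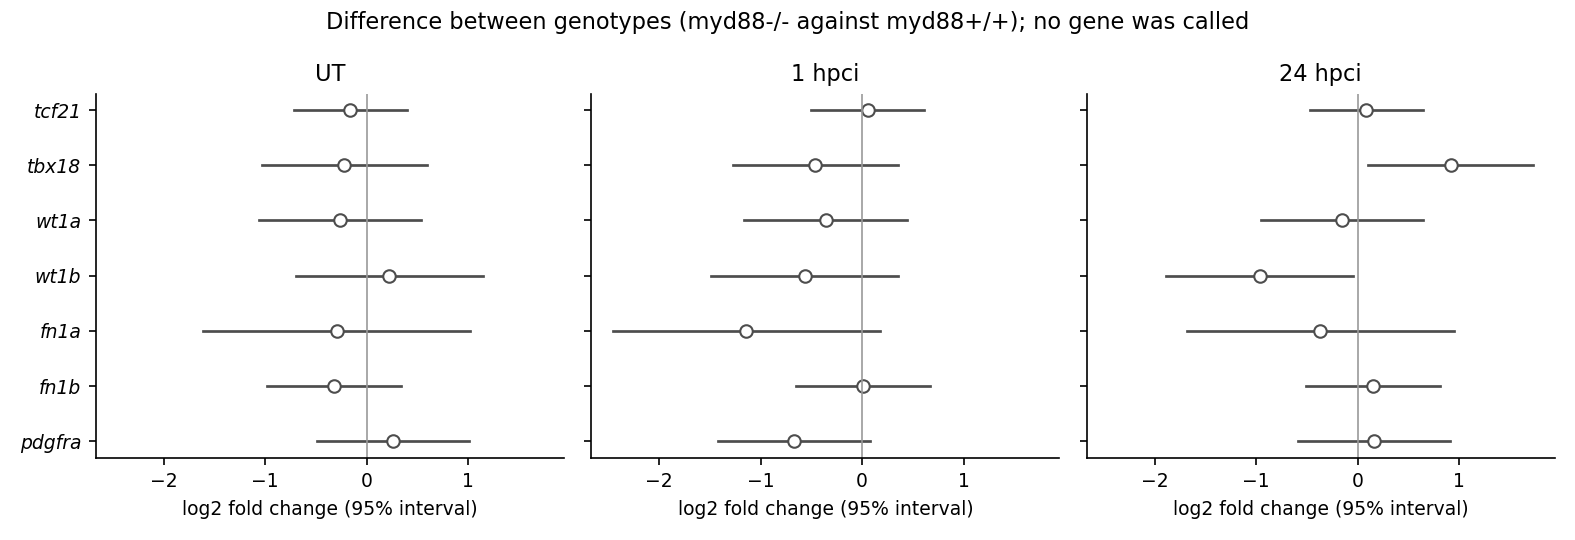
Log2 fold change of myd88-/- against myd88+/+ with its 95% interval for each gene in UT ventricles and at 1 and 24 hpci, none of which was called. At 24 hpci the intervals of tbx18 (0.10 to 1.73) and wt1b (-1.88 to -0.05) leave out 0 before adjustment. Of all 16643 tested genes 853 had an unadjusted p below 0.05 there.

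Whether the change between states itself differed between genotypes was tested as an interaction, and none of the 7 was called from UT to 1 hpci (0.138% of all tested genes), from UT to 24 hpci (0.0481%) or from 1 to 24 hpci (0.0180%). The numbers of the 7 with an unadjusted p below 0.05 were 0, 0 and 1, beside 1425, 1394 and 991 of all 16643 tested genes. The 1 was tbx18 from 1 to 24 hpci, with a difference of 1.38 on the log2 scale (95% interval 0.22 to 2.53, adjusted p = 0.698). So the rise of tbx18 that was called in myd88-/- and not in myd88+/+ was not shown to differ between them. From UT to 24 hpci the interaction was 1.14 for tbx18 (adjusted p = 0.603) and -1.19 for wt1b (adjusted p = 0.633).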

How the data were processed

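The labels gave the genotype, state and replicate of each of the 12 mRNA libraries. The authors aligned trimmed reads to danRer11 (Trimmomatic 0.39, STAR 2.7.3a), removed duplicate, multimapping, ribosomal and mitochondrial reads (Picard 2.21.7), counted reads on exons (featureCounts 1.6.5) and normalized them (DESeq2 1.26.0). The deposited values are a score, normalized counts (reads over the size factor of the library) kept as whole numbers, so no count model was fitted. Removing duplicates limits how many reads a highly expressed gene can keep, more so in deep libraries, and dropping multimapping reads removes those from stretches that paralogs share.

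Genes with a mean above 5 (16643 of 22736) entered 1 limma fit (version 3.58.1, R 4.3.3) of log2(value + 1), with trend, 6 condition means and 6 degrees of freedom left. Changes of low genes come out too small on that scale. Replicates are pools of fish, 2 per condition. Reads were estimated from the steps between low values, and floors and intervals from them cover counting error only. Exact permutation tests went through every arrangement of the libraries (numpy 2.4.6). Statistics were tested on simulated data. The genes and lists were chosen with earlier results of these data known. Named are the 7 genes, up to 4 genes of each list with the largest called change at 24 hpci against UT in myd88+/+, list genes called between genotypes, the 3 genes most like each of the 7 (1 of them is not reported here), and myd88. Other list genes named (such as aldh1a2, hand2, mslna, bnc2, snai1a, itga5, itgb3a, pdgfbb, col12a1a and nrg1) were chosen after their values were seen.

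Alternatives were other pseudocounts (0.5, 5), filters (none, a mean above 20), thresholds, quantile normalization, TMM factors, a fit of the groups compared alone, no trend, the replicate number as a block, and each library left out. Leaving out both libraries that stand apart and a block with crossed numbers were added after seeing the data.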

Additional observations from a re-analysis of the deposited data

How the results depend on the processing

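The counts of the 7 genes called stayed within 1.5 times those reported under every setting that kept all libraries, apart from myd88+/+ at 1 hpci against UT, where fitting only the groups compared gave 0 in place of 2. That setting called 0 of all 16643 tested genes in this comparison, in place of 1453. Leaving out each library in turn gave 0 to 3 genes called for that comparison, 3 to 5 for myd88+/+ at 24 hpci against UT, 3 to 3 between its 2 injured states, 1 to 4 for myd88-/- at 1 hpci against UT, 0 to 5 at 24 hpci against UT and 2 to 4 between its injured states. The number of all tested genes called also moved with the library left out, so these counts are not a result about the 7 alone. Between genotypes the only genes called in any of these fits were fn1a at 1 hpci (log2 fold changes of -2.365 to 0.08097) and tbx18 at 24 hpci (0.2925 to 1.542). Among the interactions it was tbx18 alone, from UT to 24 hpci (0.5126 to 1.763) and from 1 to 24 hpci (0.7535 to 2.003). A fit with a library fewer has a lone library in 1 group, which is assumed to vary like the others. The 0 for myd88+/+ came without replicate 1 of its UT ventricles, and counts for myd88-/- more than 1.5 times lower came without 1 of its UT libraries or without replicate 2 of an injured state. Between its injured states 3 were called without replicate 1 at 1 or 24 hpci or replicate 2 at 1 hpci.

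Of 21 called fold changes none changed sign under the 12 settings other than leaving out a single library, and 4 lost the call in at least 1 of them (tcf21 and tbx18 in myd88+/+ at 1 hpci, fn1b in myd88+/+ between injured states and pdgfra in myd88-/- at 1 hpci). Over all 84 fold changes of the 7 genes, leaving out a library turned the sign of 0 called and 29 uncalled ones, among them tcf21 between genotypes at 24 hpci (-0.17 to 0.34). Among the 38 followed under every setting, the sign turned for fn1a in myd88+/+ at 1 hpci against UT (range -2.369 to 0.0769 over libraries left out), for fn1a between genotypes at 1 hpci (0.08097 without the skeletal muscle library or without both libraries that stand apart, the upper end of a range from -2.37) and for pdgfra in myd88+/+ at 1 hpci against UT (0.17 in the same 2 settings, range -0.81 to 0.17), none of which was called. Leaving out a UT library raised the exact p of the fn1b to fn1a ratio at 1 hpci to 0.0571, the smallest that 3 against 4 libraries allow.

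The replicate numbers name different pools, and same-numbered libraries did not deviate together between genotypes (correlations of -0.35 at 24 hpci, -0.13 at 1 hpci and -0.02 in UT ventricles). Between states they were 0.165, 0.23 and 0.277 in myd88-/- and 0.00811, 0.0462 and 0.282 in myd88+/+, so not every pair was over 0.1. When the replicate block was added 2 genes were called in myd88+/+ at 1 hpci against UT, as without it, and no other count of calls changed. A block with crossed numbers, added after seeing the data, gave 4 in place of 3 for myd88-/- at 1 hpci and 5 in place of 4 at 24 hpci against UT. Depth limits the shallow library most, where 3 reads stand for 7.61 normalized counts.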
